A study of Nothobranchius furzeri with 20 samples.

Results

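Brains of 14-week-old males of the turquoise killifish Nothobranchius furzeri, GRZ strain, were compared with brains of the same strain and sex at 10 weeks. The comparison took the 5 RNA-seq libraries with the age label 14 weeks and the 5 with the age label 10 weeks, 10 of the 20 libraries of the series, chosen by that label alone. The other libraries, 5 at 5 weeks and 5 at 7 weeks, entered the shared fit and served to show where a gene stood at younger ages. The labels give no genotype change and no treatment for any group, do not say whether brains were pooled, and do not say which parts of the head were dissected. They list the libraries of an age as separate samples, and the p-values below judge differences against the spread between samples. In the fit of all 20 libraries that spread takes in the 5- and 7-week samples too.

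The turquoise killifish is an annual fish of seasonal African pools that matures, breeds and ages within one wet season. The GRZ strain is an inbred laboratory strain known for its very short life. In this species the ageing brain is known for gliosis, declining adult neurogenesis and degeneration of neurons.

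The count table gives gene identifiers without names, and 0 of its 26739 identifiers occurred in the RefSeq gene table at hand, so no gene is named by symbol, no role is assigned, and the label brain could not be checked against marker genes. Total counts of the 10 libraries ran from 17.3 M to 23.8 M (M, mega). The 14-week libraries detected 21449 to 21820 identifiers with at least 1 read, and the 10-week libraries 21567 to 21782. The 10 most abundant genes took 3.46 ± 0.315% of the counts at 14 weeks and 3.47 ± 0.0922% at 10 weeks (SD, n = 5 each). Neither measure separated the ages (exact permutation tests, two-sided, p = 0.80 for identifiers and p = 0.96 for the share, both 0.96 after adjustment over 3 library measures; the smallest p that 5 against 5 allows is 0.0079). The running numbers in the sample titles are 66 to 73 at 14 weeks and 57 to 62 at 10 weeks. What they stand for is not given, and any order of handling that they follow cannot be told apart from age.

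A small set of genes was far more abundant in the 14-week than in the 10-week brains. A gene is said to be called where it passed an adjusted p of 0.05. With all 20 libraries in the model, 19 genes were called higher at 14 weeks (edgeR, quasi-likelihood), which is 0.0976% of the 19474 genes examined, and 0 lower. An unadjusted p below 0.05 was reached by 805 genes in the higher direction (4.13%) and 379 in the lower (1.95%). By DESeq2 on the same libraries 84 passed as higher (0.431%) and 10 as lower (0.0514%). By limma-voom 0 passed in either direction, with 804 higher (4.13%) and 407 lower (2.09%) before adjustment. In total RNA of brain, fewer cells of a type and less RNA per cell cannot be told apart, and this holds for every level below.

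Restricting the model to the 10 libraries compared gave a longer list. There edgeR had 65 genes higher (0.341% of 19034) and 7 lower (0.0368%) after adjustment, and 1147 (6.03%) and 810 (4.26%) before it. For these libraries limma-voom had 67 higher (0.352%) and 4 lower (0.021%), and DESeq2 235 higher (1.23%) and 109 lower (0.573%). All 19 genes were among the 65, where they made up 29.2%. Of the 65, 62 were also in the list of 67 by limma-voom (95.4% of the first and 92.5% of the second). All 65 were in the list of 235 by DESeq2, and all 7 in that of 109.

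The spread estimated for these genes differed with the libraries used. The median gene-wise dispersion of the 19 was 0.313 with all 20 libraries and 0.0463 with the 10, against 0.0407 and 0.025 over all genes. This dispersion is not the quasi-likelihood spread that the test uses. It was larger with all 20 libraries in all 19 genes, and in 87.5% of the genes tested in both fits. Single libraries moved the count of 19 widely, between 3 and 41. Removing a 10-week library left 3 genes (replicates 1, 2, 3 and 5, each in turn) or 8 (replicate 4). Removing 14-week replicate 1, 2 or 3 left 5 genes, removing replicate 4 left 4, and removing replicate 5 left 18. Among the young libraries, the count became 6 for the removal of 5-week replicate 1 or of replicate 3, and 41 for replicate 4. It became 16 for 5-week replicate 2 and 28 for 5-week replicate 5. For the 7-week replicates 1 to 5 it became 31, 30, 34, 5 and 15. Just 3 of the 19 genes passed whichever of the 20 libraries was removed. The model of the 10 libraries was steadier, with 48 to 85 higher genes in 9 of its 10 reduced versions and 225 once 10-week replicate 4 was removed. In it 18 of the 19, and 46 of the 65 (not the set of 46 described below), passed in all 10 versions.

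**Figure D1:**
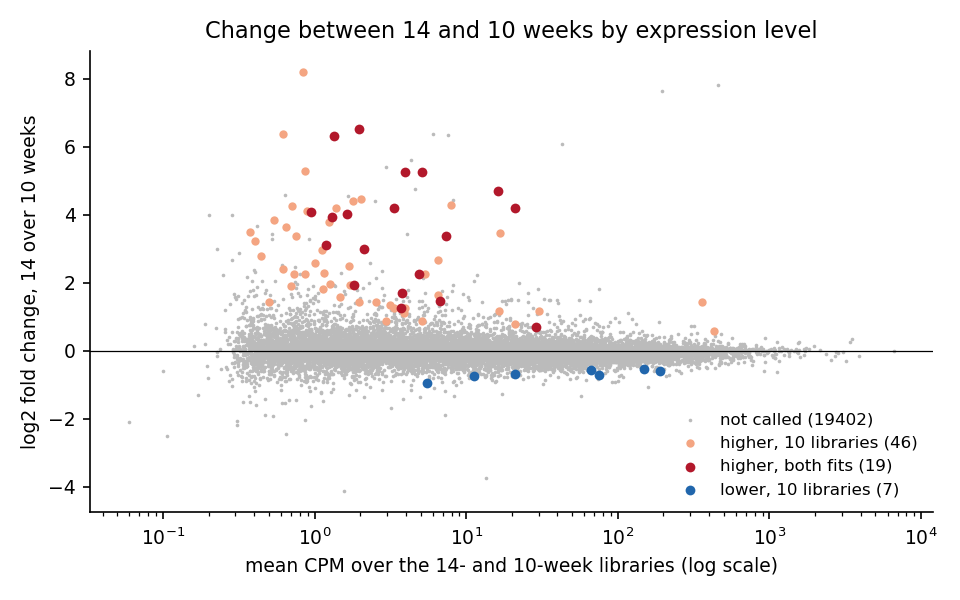
The log2 fold change between 14 and 10 weeks from the fit of all 20 libraries (vertical axis) is plotted against the mean CPM of the 14- and 10-week libraries on a log axis, 1 point per tested gene. The 19 genes called higher in both fits (dark red) and the 46 called higher with only the 10 libraries (orange) reach 8.21 on the log2 scale, the 7 lower genes (blue) lie between -0.93 and -0.54, and a few grey points far above 0 at high CPM belong to genes called in neither fit.

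The changes of the 19 genes were large. Their log2 fold changes ran from 0.71 to 6.53 with a median of 3.92, against a median of 0.0011 over all genes tested. Of the 19, 13 lay beyond 8-fold, 1 between 4- and 8-fold, 4 between 2- and 4-fold and 1 below 2-fold. Each of the 19 was lower in every 10-week library than in any 14-week library. They were called for a difference between these same libraries, so this separation describes them and adds no separate support. Over all tested genes, 1.32% were separated in this direction and 1.31% in the other. Beyond 2-fold, 324 tested genes were higher (1.66%) and 52 lower (0.267%).

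Nfu_g_1_021983 had the largest change among the 18 of the 19 genes that averaged 1 CPM or more. Levels are given as CPM, the counts scaled by effective library size. Its level was 3.50, 5.02, 4.17, 3.70 and 3.16 CPM in 14-week replicates 1 to 5, against 0.0423, 0.0851, 0, 0 and 0.0478 CPM in 10-week replicates 1 to 5. In reads, the 14-week libraries held 402 and the 10-week libraries 4. That is a ratio of 105.4 per effective library size, with an exact 95% interval of 40.8 to 388.7 that covers counting error only. The fitted log2 fold change was 6.53 ± 1.12 (SE), and edgeR's adjusted p was 0.034 in the fit of all libraries and 1.8e-06 in the fit of the 10 libraries. Per length (612 bases) its level was 6.39 ± 1.17 RPKM (CPM per kilobase of gene) at 14 weeks and 0.0572 ± 0.0587 at 10 weeks (SD, n = 5 each). The gene was near 0 at 10 weeks, while it averaged 3.41 ± 2.17 CPM at 5 weeks (SD, n = 5), where replicate 4 had 0.039 CPM.

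Nfu_g_1_012497 had the next largest change. It stood at 2.96, 2.43, 1.77, 3.13 and 3.01 CPM in 14-week replicates 1 to 5, against 0.0847, 0.0425, 0, 0 and 0 CPM in 10-week replicates 1 to 5. The 14-week libraries held 278 reads and the 10-week libraries 3, a ratio of 97.2 with an exact 95% counting interval of 32.9 to 474.1. Its log2 fold change was 6.33 ± 1.14 (SE; by edgeR, adjusted p = 0.035 with all libraries and 1.3e-05 with the 10 libraries). Both genes lost their call in 12 of the 20 fits that left out 1 library, with edgeR adjusted p-values of at most 0.15 and 0.16, and by limma-voom on all libraries (adjusted p = 0.43 and 0.35).

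Most of the 19 were genes of low abundance. Over the 10 libraries, 1 averaged below 1 CPM and 15 from 1 to 10 CPM, against 1656 and 5794 of the 19474 tested genes. The mean of the 19 at 14 weeks had a median of 5.78 CPM, with a range of 1.79 to 39.96 CPM, and their mean at 10 weeks a median of 0.470 CPM. Together they made up 173.0, 203.6, 212.2, 199.7 and 191.9 CPM in 14-week replicates 1 to 5, against 39.9, 37.4, 37.7, 38.4 and 39.2 CPM in 10-week replicates 1 to 5. The sums within an age were close to each other and the ages far apart. The 19 were called for a difference between these same libraries, so the sums describe them and add no separate support. The most abundant gene of the 19, chosen after its values were seen, stood at 30.4, 44.8, 52.2, 39.0 and 33.4 CPM in 14-week replicates 1 to 5, against 1.86, 1.999, 1.93, 2.53 and 2.54 CPM in 10-week replicates 1 to 5. Its log2 fold change was 4.20 ± 0.64 (SE; by edgeR, adjusted p = 0.015). The gene with the smallest change of the 19 was also abundant, at 35.8 ± 2.86 CPM at 14 weeks and 21.9 ± 2.17 CPM at 10 weeks (SD, n = 5 each), which is 0.71 ± 0.13 (SE) higher on the log2 scale (adjusted p = 0.035 by edgeR). The median length of the 19 genes was 1974 bases, against 2670 bases over all genes tested.

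**Figure D2:**
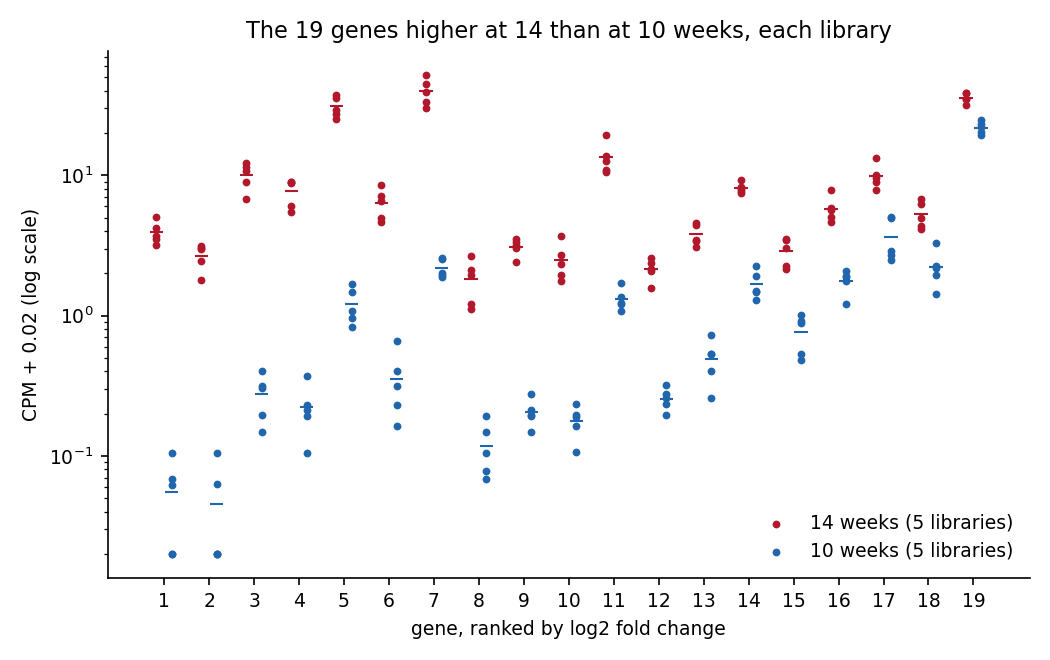
CPM plus 0.02 on a log axis for the 19 genes called higher at 14 weeks in both fits, ranked from the largest to the smallest log2 fold change, with 1 point per library at 14 weeks (red) and 10 weeks (blue) and a bar at the mean of each age. Every 14-week point lies above every 10-week point of its gene, and the lowest points, at 0.02, are libraries without a read.

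The 46 genes called higher only with the 10 libraries in the fit covered a wider range of levels. Their log2 fold changes in that fit ran from 0.59 to 8.17 with a median of 2.28, and 16 of them lay beyond 8-fold. In all 46 every 14-week library was above every 10-week library, which describes genes called on these libraries and adds no support. Their edgeR adjusted p-values in the fit of all libraries ran from 0.052 to 0.68, and 16 were below 0.1. The gene with the largest change of the 46, chosen after its values were seen, had 40, 36, 40, 27 and 30 reads in 14-week replicates 1 to 5, against 0 reads in each of the 10-week libraries. Set against an assumed 3 reads over the 10-week group, the ratio was 60.5, without allowance for counting error in the 14-week reads. Over all identifiers, 3 had 0 reads in every 10-week library and at least 1 in every 14-week library, and 0 showed the opposite.

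Among the 46, 2 genes were abundant, at a mean of at least 100 CPM, and changed less. The first stood at 438.5, 435.0, 489.2, 405.8 and 853.3 CPM in 14-week replicates 1 to 5, against 223.0, 131.6, 214.9, 162.4 and 229.4 CPM in 10-week replicates 1 to 5. Replicate 5 was far above the other 14-week libraries, and the ages did not overlap. Its log2 fold change was 1.45 ± 0.23 (SE; by edgeR, adjusted p = 0.017 with the 10 libraries and 0.65 with all libraries). The second averaged 515.8 ± 42.3 CPM at 14 weeks and 345.6 ± 50.2 CPM at 10 weeks (SD, n = 5 each), which is 0.59 ± 0.11 (SE) higher on the log2 scale in the fit of the 10 libraries (adjusted p = 0.035 by edgeR, and 0.35 with all libraries).

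The genes higher at 14 than at 10 weeks were not low in young brains as a rule. These genes were chosen for being lower at 10 than at 14 weeks, and the counts that follow describe them. The mean at 10 weeks was the lowest of the 4 ages in all 19 genes and in 45 of the 46, against 26.6% of all tested genes. The mean at 14 weeks was the highest of the 4 ages in 16 of the 19 and 33 of the 46, against 21.4% of all tested genes. The geometric mean of the 19 genes, taken over CPM plus 0.1 with that offset kept, was 4.47, 5.45, 5.20, 0.844 and 5.89 at 5 weeks in replicates 1 to 5. At 7 weeks it was 1.72, 0.798, 5.29, 3.71 and 4.60 in replicates 1 to 5. At 10 weeks it lay between 0.672 and 0.778, and at 14 weeks between 6.16 and 6.82. Each young library thus lay between the 10-week and the 14-week range, some close to the 10-week libraries and others nearer the 14-week libraries.

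Gene by gene the young libraries differed in the same way. In 5-week replicate 4 and 7-week replicate 2, 0 of the 19 genes were nearer, in log2 CPM, to their 14-week than to their 10-week mean, and in 7-week replicate 1 the number was 6. In the other 5-week libraries it was 18 or 19, and in 7-week replicates 3, 4 and 5 it was 18, 15 and 17. The 46 genes gave 4, 3 and 7 in 5-week replicate 4 and 7-week replicates 2 and 1, and 34 to 43 in the other 7 young libraries. The 65 genes together were chosen without any 5- or 7-week library. Their split into the 19 and the 46 rests on the fit of all libraries, the young ones included. Over all tested genes the share nearer the 14-week mean was 53.03%, 43.2% and 48.6% in those 3 libraries and 43.6% to 61.6% in the other 7. Of these libraries, 5-week replicate 4 was also among the 3 least correlated with the rest of the series (median Spearman rho 0.955). So were 7-week replicate 3 (0.925) and 5-week replicate 5 (0.955), each with 18 of the 19 genes nearer the 14-week mean. For 7-week replicates 1 and 2 the rho was 0.982 and 0.975. Running title numbers were 25, 53 and 48 for the 3 libraries, within the span of the other young libraries (20 to 65). Numbers 48 and 53 come shortly before the 10-week numbers (57 to 62), with 7-week replicate 3 in between at 55. The 7-week replicates 4 and 5, at 64 and 65, come directly before the 14-week numbers (66 to 73). Whether the level of the 19 genes follows the title numbers was not tested.

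**Figure D3:**
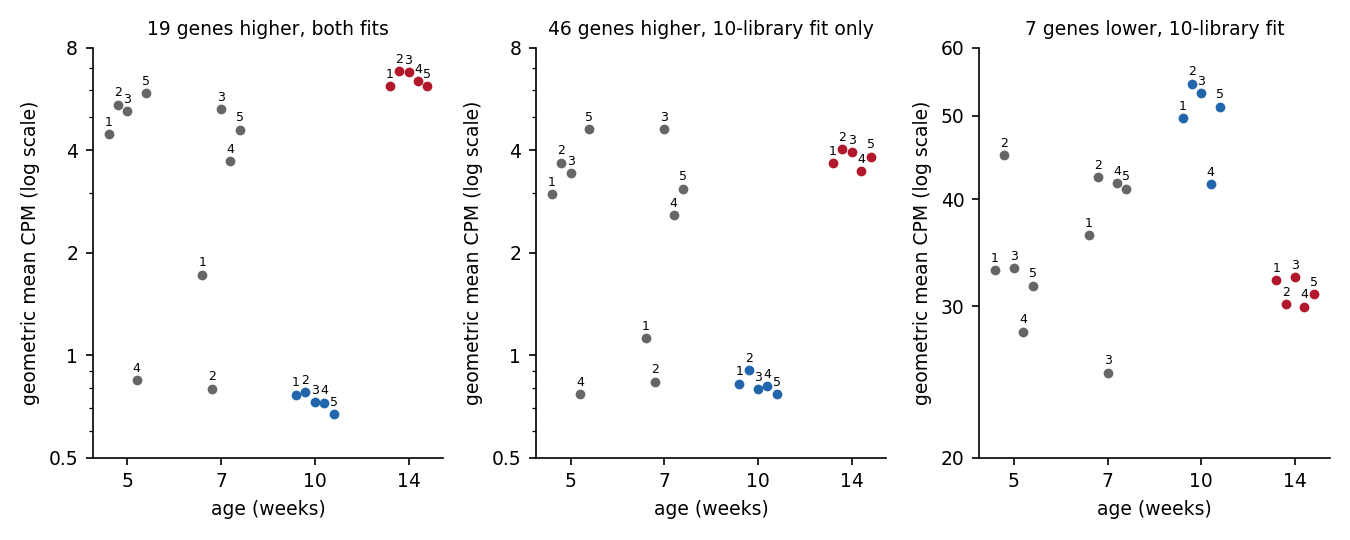
Geometric mean CPM (CPM plus 0.1, log axis) of the 19 genes higher in both fits, the 46 higher only with the 10 libraries and the 7 lower, by age in weeks, with 1 point per library labelled by its replicate number. In the first panel the 10-week libraries lie between 0.672 and 0.778 and the 14-week libraries between 6.16 and 6.82, and all 5- and 7-week libraries lie between these levels, from 0.798 to 5.89.

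The genes lower at 14 weeks changed little in size and mostly averaged at least 10 CPM over the 10 libraries. By class, 1 lay from 1 to 10 CPM, 4 from 10 to 100 CPM and 2 at 100 CPM and above. Of all 19474 tested genes, 5794, 9624 and 2400 lay in these classes, so most tested genes also averaged at least 10 CPM. The 7 called with the 10 libraries had log2 fold changes of -0.93 to -0.53 in that fit, all below 2-fold, and their mean at 10 weeks ran from 7.25 to 227.2 CPM with a median of 79.2. In all 7 every 14-week library was below every 10-week library, which again describes genes called on these libraries. In the fit of all libraries none of the 7 was called (edgeR adjusted p between 0.084 and 0.56). These genes were chosen for being higher at 10 than at 14 weeks, and as a description their mean at 10 weeks was the highest of the 4 ages in each of the 7. Over all tested genes the mean at 10 weeks was the highest in 27.1%. Removing 10-week replicate 4 gave 35 genes called lower with the remaining libraries, and removing any other library 1 to 8. The removal of 10-week replicates 1 to 3 in turn left 2, 2 and 1, and that of 14-week replicates 1 to 3 left 3, 4 and 4. Of the 7, 1 passed in all 10 versions.

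Nfu_g_1_021173 had the largest change of the 7. It stood at 4.00, 3.57, 4.59, 2.96 and 3.88 CPM in 14-week replicates 1 to 5, against 6.35, 10.1, 6.91, 6.04 and 6.84 CPM in 10-week replicates 1 to 5. The ages did not overlap, and 10-week replicate 2 was well above the other libraries of its age. The log2 fold change was -0.93 ± 0.17 (SE; by edgeR, adjusted p = 0.038 with the 10 libraries and 0.14 with all libraries). Nfu_g_1_000271 stood at 10.2, 7.66, 8.65, 9.05 and 6.48 CPM in 14-week replicates 1 to 5, against 13.6, 15.3, 15.6, 11.1 and 15.3 CPM in 10-week replicates 1 to 5. Its log2 fold change was -0.74 ± 0.14 (SE; by edgeR, adjusted p = 0.049 with the 10 libraries and 0.54 with all libraries). At 7 weeks it averaged 8.85 ± 2.70 CPM and at 5 weeks 7.41 ± 2.77 CPM (SD, n = 5 each), near its 14-week mean of 8.41 CPM.

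The gene of the 7 with the smallest p, chosen after its values were seen, stood at 53.5, 48.6, 57.06, 58.01 and 68.9 CPM in 14-week replicates 1 to 5, against 90.8, 97.3, 98.3, 93.1 and 89.8 CPM in 10-week replicates 1 to 5. Its log2 fold change was -0.71 ± 0.09 (SE; by edgeR, adjusted p = 0.0023 with the 10 libraries and 0.084 with all libraries). The length solved for it from the deposited RPKM values is 24 bases, so its level per length is not given. The most abundant of the 7 averaged 149.9 ± 19.2 CPM at 14 weeks and 227.2 ± 25.8 CPM at 10 weeks (SD, n = 5 each), for a log2 fold change with its SE of -0.59 ± 0.11 (adjusted p by edgeR of 0.035 with the 10 libraries and 0.30 with all).

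The direction of complete separation varied with expression level. Among the 1656 tested genes with a mean below 1 CPM, 52 had every 14-week library above every 10-week library and 11 the reverse. From 1 to 10 CPM the numbers were 125 and 51 of 5794 genes, from 10 to 100 CPM 73 and 124 of 9624, and at 100 CPM and above 8 and 70 of 2400. Separated genes of low abundance were thus mostly higher and those of high abundance mostly lower at 14 weeks. Other measures from the edgeR fit of all libraries did not all turn in this way. An unadjusted p below 0.05 was reached by 278 higher and 208 lower genes from 10 to 100 CPM. At 100 CPM and above the numbers were 44 and 81. Beyond 2-fold lay 43 higher and 3 lower genes from 10 to 100 CPM, and 4 and 1 at 100 CPM and above. The sizes were modest in the abundant class, where the middle 90% of log2 fold changes lay between -0.33 and 0.21, against -0.70 and 1.25 below 1 CPM. Of the 19 genes, 1 had a mean below 1 CPM, 15 lay from 1 to 10 CPM and 3 from 10 to 100 CPM. The 100 most abundant genes had log2 fold changes between -0.61 and 0.37 and held none of the 65 or the 7. Over all genes in the fit of the 10 libraries these lists made up 0.341% and 0.0368%, so 0 among 100 is near that share.

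**Figure D4:**
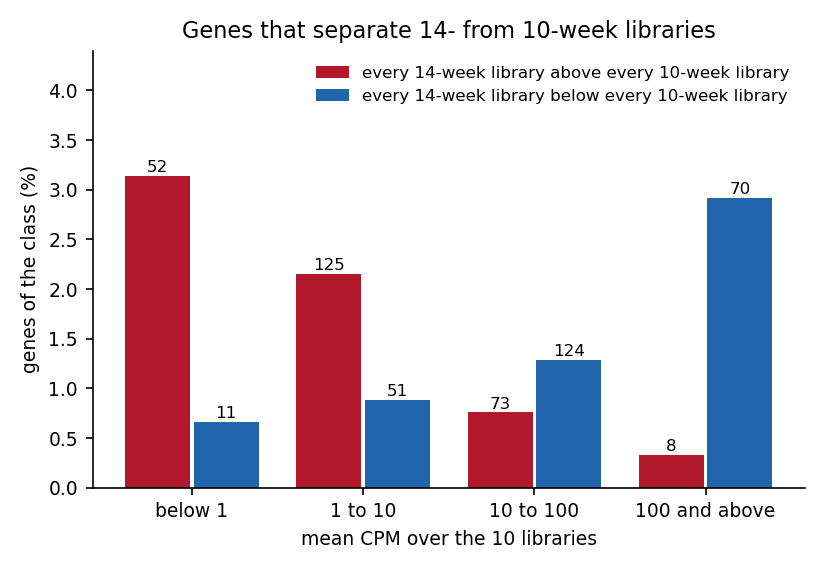
Share of the tested genes in each class of mean CPM (in %) for which every 14-week library lay above (red) or below (blue) every 10-week library, with the number of genes over each bar. The red bars are higher in both classes below 10 CPM, with 52 and 125 genes, and the blue bars in both classes from 10 CPM, with 124 and 70 genes.

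Some of the largest differences were not called. In the fit of all libraries, 83 genes lay beyond 4-fold higher (0.426% of those tested) and 8 beyond 4-fold lower (0.0411%). Of these, 43 higher and 8 lower genes were called in neither fit, and 16 and 2 of them passed the filter on low counts in the fit of the 10 libraries. In 12 of the 43 all 5 libraries of 14 weeks were above every 10-week library, in 19 it was 4 of the 5, and in 8 it was 3. Over all tested genes, 1.32% had all 5 above. Replicate 5 was the 14-week library that most often did not lie above, being above every 10-week library in 18 of the 43, against 37, 40, 39 and 32 for replicates 1 to 4. These counts describe genes kept for being beyond 4-fold and uncalled. The same count per library was not made over all tested genes, so it is not read as a trait of replicate 5.

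The 3 most abundant of the 43 genes, singled out after their values were seen, were present at high levels in part of the 14-week brains. The first stood at 715.8, 1727, 1342, 790.1 and 4.44 CPM in 14-week replicates 1 to 5, against 8.85, 2.21, 1.70, 0.300 and 6.99 CPM in 10-week replicates 1 to 5. The second stood at 532.7, 808.4, 583.8, 16.7 and 0.714 CPM in 14-week replicates 1 to 5, against 3.17, 0.170, 0.937, 0.214 and 5.22 CPM in 10-week replicates 1 to 5. The third stood at 139.4, 158.9, 109.6, 10.7 and 0.408 CPM in 14-week replicates 1 to 5, against 0.381, 0.0851, 0.0586, 0.0429 and 5.598 CPM in 10-week replicates 1 to 5. All 3 were far above the 10-week range in 14-week replicates 1, 2 and 3 and lay within the 10-week range in replicate 5. In the younger libraries all 3 were high in 7-week replicate 1, at 155.0, 788.0 and 119.1 CPM, while the other young libraries had at most 9.44, 6.12 and 1.03 CPM. Their log2 fold changes were 7.83 ± 1.77, 7.64 ± 2.24 and 6.09 ± 1.92 (SE), with edgeR adjusted p-values of 0.12, 0.39 and 0.47 with all libraries and 0.055, 0.13 and 0.18 with the 10 libraries. For these 3 genes the 14-week libraries thus ran from the 10-week level to the highest levels seen, and the 7-week libraries also ran wide through replicate 1. The 19 genes were high in every 14-week library, replicate 5 included. This contrast follows from the choice, since the 19 were called and these 3 were picked from the uncalled genes.

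In the other direction, the most abundant of the 8 uncalled lower genes stood at 1.08, 0.983, 2.397, 2.74 and 2.14 CPM in 14-week replicates 1 to 5, against 60.5, 2.47, 0.879, 59.9 and 1.72 CPM in 10-week replicates 1 to 5. Its 10-week mean rested on replicates 1 and 4, and the ages overlapped. Its log2 fold change was -3.75 ± 1.20 (SE; by edgeR, adjusted p = 0.48 with all libraries and 0.30 with the 10 libraries).

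The 14-week libraries lay farther apart from one another than the 10-week libraries in these samples, by a difference that did not pass its test. Spearman's rho between pairs of 14-week libraries had a median of 0.977 over 10 pairs, against 0.990 over the 10 pairs of 10-week libraries and 0.983 over the 25 pairs of 1 library from each age. The mean distance of a library to the centroid of its age in log2 CPM was 51.2 ± 11.7 at 14 weeks and 38.3 ± 5.66 at 10 weeks (SD, n = 5 each). The single distances were 36.0, 51.7, 45.6, 55.2 and 67.5 in 14-week replicates 1 to 5, against 32.3, 33.7, 38.2, 40.7 and 46.4 in 10-week replicates 1 to 5, so the ages overlapped. The difference of 12.9 did not pass the test (permutation test over all assignments of the distances, two-sided, p = 0.056, adjusted over the 3 library measures p = 0.17). The centroids were those of the true ages and were not recomputed for each assignment, so this p is approximate. It was 5.40 without 14-week replicate 5. In 61.7% of the tested genes the SD of log2 CPM was larger at 14 than at 10 weeks, with medians of 0.227 at 14 weeks and 0.187 at 10 weeks.

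The first principal component of the 500 most variable genes, with 38.6% of the variance of the 10 libraries, placed the 14-week libraries between 0.560 and 41.2 and the 10-week libraries between -19.3 and -10.3. The second, with 29.3%, ran from -25.5 to 28.3 over the 14-week libraries and from -10.8 to -4.31 over the 10-week libraries. The ages did not overlap on the first, and the 14-week libraries spanned the second from end to end, with replicate 5 at one end and replicates 2 and 3 at the other.

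**Figure D5:**
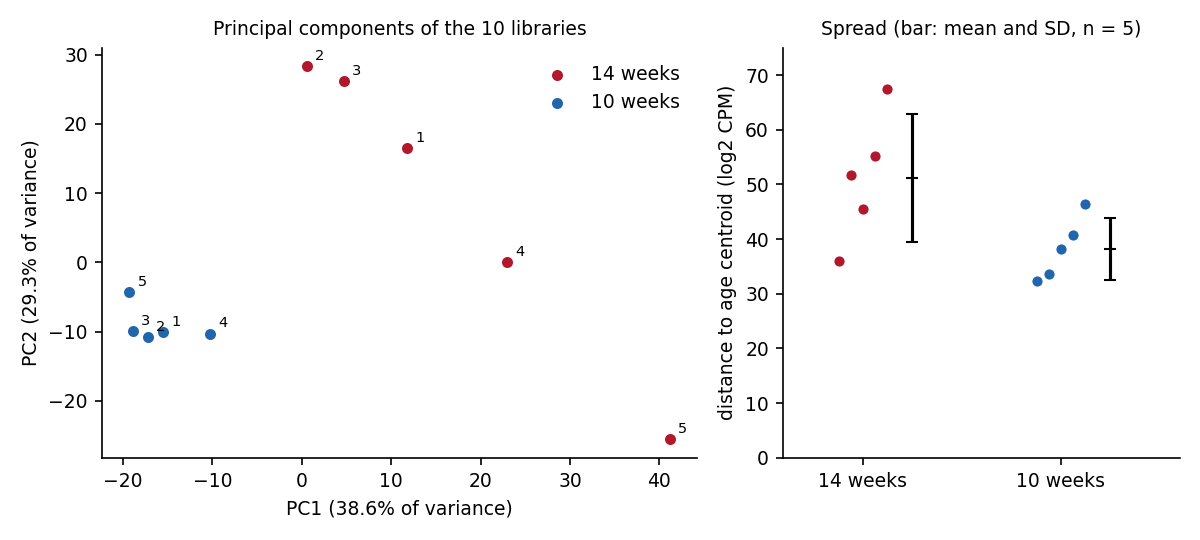
Left, the 14-week (red) and 10-week (blue) libraries on the first principal components of the 500 most variable genes, labelled by replicate. Right, the distance of each library to the centroid of its age in log2 CPM, with mean and SD (n = 5 each), which were 51.2 ± 11.7 at 14 weeks and 38.3 ± 5.66 at 10 weeks.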

How the data were processed

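Per the labels' protocols, TruSeq RNA v2 libraries were prepared from total RNA of brain. Per the submitters' processing notes, the tools were featureCounts 1.4.6-p4, STAR 2.4.1d and CASAVA 1.8.2. Build, annotation and strandedness were not given in the sources used here, so overlapping and near-identical genes are not resolved. The authors deposited raw read counts per gene. The RPKM values deposited by the authors divide by library totals that rotate from row to row. Undoing the rotation recovers 99.99% of them to within 0.0011, and using own totals 4.43%, so they served only to solve gene lengths.

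The quasi-likelihood test of edgeR 4.0.16 (R 4.3.3) was run on the counts of all 20 libraries, 1 mean per age, with TMM scaling, filterByExpr, the robust option and Benjamini-Hochberg adjustment over all tested genes. Alternatives were DESeq2 1.42.0, limma-voom (limma 3.58.1), other scaling and filters, only the 10 libraries in the fit and leaving out each library. CPM values use TMM-scaled totals, and the SE is the log2 fold change divided by the square root of F. The code was tested on simulated counts. Library pairs of 1 age differed beyond sampling noise, with a chi-square per degree of freedom of at least 8.67. By the rule for named genes, without symbols, the 2 largest changes per direction are printed (called, separated, mean CPM of at least 1), and the lower ones come from the fit of the 10 libraries because 0 were called with all 20. Members and lists were chosen with earlier results of these data known. Gene lists by symbol were not counted because the identifiers carry no names.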

Additional observations from a re-analysis of the deposited data

Results flagged for a closer look

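In 3 of 44 groups of 5 libraries examined, 1 library stood far from the others of its age by the gap to its nearest neighbour, and chance alone marks about 1 group in 20. The 44 groups leave out some values given above, so 3 of 44 is not a rate over all of them. The first of the 3 abundant uncalled genes, left out there, had 155.0 CPM in 7-week replicate 1 and at most 3.65 CPM in the other 7-week libraries. The first of the 2 abundant genes among the 46 reached 853.3 CPM in 14-week replicate 5, where the other 14-week libraries lay between 405.8 and 489.2 CPM. Nfu_g_1_021173 stood at 10.1 CPM in 10-week replicate 2, where the other 10-week libraries lay between 6.04 and 6.91 CPM. The geometric mean of the 19 genes higher at 14 weeks was 0.844 CPM in 5-week replicate 4, where the other 5-week libraries lay between 4.47 and 5.89 CPM.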

How the results depend on the processing

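The count of 19 higher genes was 84 by DESeq2, 65 with only the 10 libraries, 0 by limma-voom and 81 without the 3 libraries of lowest correlation (5-week replicates 4 and 5 and 7-week replicate 3, chosen after seeing the data). The count of 0 lower genes was 10, 7, 0 and 22 in the same order. Leaving out 1 library gave 3 to 41 higher and 0 to 2 lower. The other fits of the 10 libraries, also chosen after seeing the data, gave 235 higher and 109 lower by DESeq2 and 67 higher and 4 lower by limma-voom, and 48 to 225 higher and 1 to 35 lower without 1 library. Other scaling, other filters and no robust step left each count within 1.5 times of its own.

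The difference in identifiers detected (-19.6) reversed to 30 with at least 5 counts and 25.2 after thinning, and lay between -63.0 and 29.8 without 1 library. That in the share of counts (-0.0086 percentage points) reversed to 0.093 for the 100 most abundant genes and lay between -0.13 and 0.078. The distance between libraries and centroid differed by 5.40 to 16.8 without 1 library (permutation p from 0.016 to 0.41, approximate as above). The cause of these changes was not tested. No paired analysis was possible because replicate numbers follow accession order and pair nothing.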
